A study of Mus musculus with 8 samples.

Results

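The CD300 receptors are a family of cell surface proteins of myeloid cells, and 6 of their genes, Cd300a, Cd300c, Cd300e, Cd300lb, Cd300ld and Cd300lf, were followed here by their gene names among the 54532 genes of a deposited count table. All 6 lie on chromosome 11 of the mouse genome mm10. Polyadenylated RNA was sequenced from neutrophils of tumours that 2208L cells, a mouse mammary tumour line, had formed after injection into the mammary fat pad in Balb/c mice. Dissociation followed at a tumour diameter of 1 cm, and flow cytometry divided their neutrophils by surface ICAM1 (CD54), an adhesion molecule, into an ICAM1high fraction (n = 4 libraries) and an ICAM1low fraction (n = 4 libraries). Neither fraction had been treated, and each library was made from 100 ng of total RNA. The labels call the replicates biological but do not say which mouse gave which library, nor its age or sex, nor whether mice were pooled. The p-values below therefore describe the spread between these 8 samples, which may be partly technical.

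Each CD300 protein has a single immunoglobulin-like domain outside the cell, and several bind membrane lipids, so that the family is known for sensing phospholipids and sphingolipids on dying cells, vesicles and neighbouring cells. Members with a long tail carry tyrosine motifs (ITIMs) that recruit phosphatases and restrain activation. Members with a short tail pair with adaptor proteins, some of which recruit the kinase SYK. Neutrophils, monocytes, macrophages and mast cells carry inhibitory and activating members together.

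Totals ran from 10328575 to 22751975 counts per library. Levels are given as CPM, counts scaled to library size, with TMM factors, which assume that most genes do not differ. Between the fractions 42.1% of the 14051 genes tested passed an adjusted p of 0.05, with 22.6% higher and 19.6% lower in ICAM1high. A call for a CD300 gene has to be read against that share. How many of all genes separate the fractions without overlap was not counted, so a lack of overlap below does not set a gene apart. Scaled by library totals alone, 54.5% passed, with 48.5% higher and 5.97% lower, and the median log2 fold change of all genes was 0.76, against 0.08 with TMM. All 15 neutrophil markers examined were detected in both fractions, with a summed level of 10209 to 13947 CPM in ICAM1high libraries and 43166 to 85309 CPM in ICAM1low libraries. The 14 macrophage markers summed to 10244 to 17285 CPM in ICAM1high libraries and 1210 to 1884 CPM in ICAM1low libraries. The 7 monocyte markers summed to 2185 to 2745 CPM in ICAM1high libraries and 2567 to 3947 CPM in ICAM1low libraries, but Nr4a1 made up most of that sum, and 4 of the 7 were higher in ICAM1high with TMM and 1, Nr4a1, was lower. Mast cell and basophil markers, 9 in all, summed to 3.74 to 10.2 CPM in ICAM1high libraries and 8.69 to 12.7 CPM in ICAM1low libraries. Kit made up most of it, Fcer1a was at 0 in all 8 libraries, and 6 of the 9 were at 0 in every ICAM1low library against 1 of the 9 in every ICAM1high library. Tumour epithelial markers, 6 in all, summed to 110.6 to 163 CPM in ICAM1high libraries and 257 to 459 CPM in ICAM1low libraries, and 3 of the 5 tested were lower in ICAM1high. In such bulk samples fewer cells of a type and less RNA per cell cannot be told apart. ICAM1high replicate 1 and ICAM1low replicate 4 stood apart from their groups on the second principal component (22.0% of the variance), at scores of 61.6 and 74.5. The other 6 libraries scored between -63.0 and 0.042 there. The lowest was ICAM1low replicate 1, itself away from ICAM1low replicates 2 and 3 at -13.4 and -28.3. On the first component (58.4%) ICAM1low replicate 4 was at -99.8 and the other ICAM1low libraries at -65.7 to -52.7. The libraries said below to have stood apart are ICAM1high replicate 1 and ICAM1low replicate 4 only.

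With TMM, the inhibitory receptor gene Cd300lf and the activating receptor gene Cd300lb were lower in ICAM1high libraries, and Cd300e, a scarce transcript, was higher. The inhibitory receptor gene Cd300a and the activating receptor gene Cd300ld did not pass the test, and Cd300c was too low to be tested. The members therefore divided into 1 higher, 2 lower, 2 not passed and 1 not tested, beside 22.6% higher and 19.6% lower among all genes tested. By library totals alone, 2 were higher, 2 lower and 1 not passed, beside 48.5% higher and 5.97% lower among all genes. Without the libraries that stood apart, 1 was higher with TMM, 3 were lower and 1 did not pass, beside 25.5% higher and 24.5% lower among all genes in that fit. Cd300e passed the filter on low counts only through the ICAM1high libraries, which held it above the filter's 0.548 CPM (on unscaled totals) in 4 of 4 libraries against 0 of 4 ICAM1low libraries, so it had to differ and is no support for a direction of the family.

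**Figure D1:**
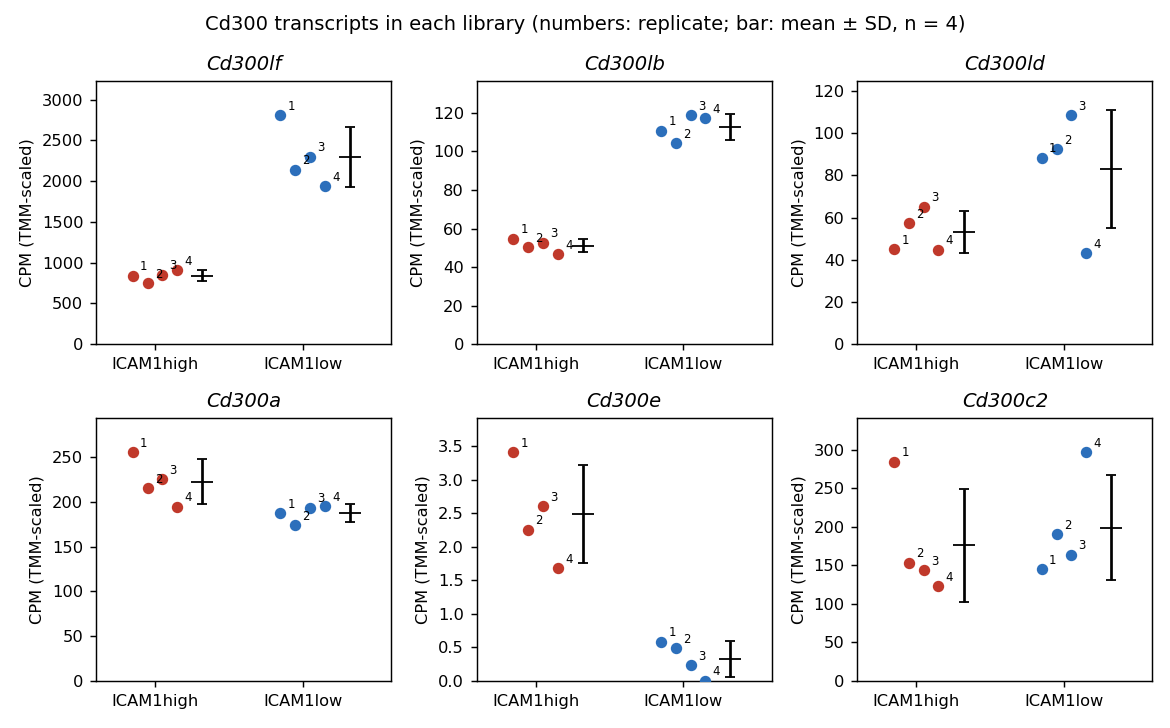
Level in each library, as TMM-scaled CPM on a linear axis from 0, of the 5 members tested and of Cd300c2, with ICAM1high libraries to the left of ICAM1low libraries; points are libraries with their replicate number, and bars give the mean ± SD (n = 4 each). Cd300lf and Cd300lb separated the fractions without overlap, and Cd300a and Cd300ld overlapped. The share of all genes that separate the fractions was not counted. Cd300e lay at 1.68 to 3.41 CPM in ICAM1high libraries and 0 to 0.59 CPM in ICAM1low libraries.

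Stretches of the promoters are shown for the 2 inhibitory receptors, Cd300lf and Cd300a, since with TMM 1 passed the test between the fractions and the other did not. They are the ends of the 250 bases before each gene's start, from RefSeq on GRCm38.p6. The windows are Cd300lf at chr11:115133993-115134075 on the minus strand and Cd300a at chr11:114889962-114890040 on the plus strand, read 5′ to 3′ along the gene, and each ends at the base before the start. Capitals mark TTCCTC, which is GAGGAA on the opposite strand, the core of the site of the myeloid factor SPI1 (PU.1).
Cd300lf: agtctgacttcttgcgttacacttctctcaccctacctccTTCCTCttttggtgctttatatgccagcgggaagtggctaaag
Cd300a: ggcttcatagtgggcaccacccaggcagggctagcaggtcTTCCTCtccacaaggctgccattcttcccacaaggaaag
Both genes thus hold the same letters close to the start, from 43 to 38 bases before it in Cd300lf and from 39 to 34 bases before it in Cd300a. GAGGAA, searched on both strands, was in 23.3% of 32851 windows of 250 bases in the RefSeq table and in 7 of the 10 CD300 windows found there. The 7 include the windows of Cd300ld, Cd300ld3, Cd300ld4 and Cd300ld5, which are near copies of each other and so not independent. The pattern TTNNGNAA of C/EBP factors was in 4 of the 10, those of Cd300a, Cd300c, Cd300ld and Cd300lf, against 36.8% of all windows. TGCTGAC, part of the site of MAF factors, was in 0 of the 10, against 3.81% of all windows. The windows of Cd300lb and Cd300e held none of these letters. A match says only that the letters are there, and binding was not measured.

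Cd300lf encodes CLM-1, an ITIM receptor that binds ceramide and sphingomyelin and restrains neutrophil and mast cell activation. The gene (ENSMUSG00000047798) spans chr11:115116214-115133992 on the minus strand, with 5149 exon bases. Its level was 841, 750, 854 and 910 CPM in ICAM1high replicates 1 to 4, against 2807, 2139, 2300 and 1934 CPM in ICAM1low replicates 1 to 4. Every ICAM1high library lay below every ICAM1low library. Means were 838.9 ± 66.3 CPM in ICAM1high and 2295 ± 372 CPM in ICAM1low (SD, n = 4 each). The log2 fold change was -1.45 (SE 0.16, adjusted p = 8.67e-05, edgeR quasi-likelihood test with Benjamini-Hochberg adjustment). Scaling by library totals alone gave -0.78, with an edgeR adjusted p of 0.00282.

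Cd300a encodes the other ITIM receptor, which binds phosphatidylserine and phosphatidylethanolamine, the lipids that dying cells expose. It is the only member of the 6 on the plus strand (ENSMUSG00000034652, chr11:114890041-114904654, 4738 exon bases). Its level was 255.9, 215.4, 225.8 and 194.8 CPM in ICAM1high replicates 1 to 4, against 187.2, 174.3, 193.8 and 195.6 CPM in ICAM1low replicates 1 to 4. Only ICAM1high replicate 4 lay inside the ICAM1low range. The log2 fold change was 0.25 (SE 0.14), with an edgeR adjusted p of 0.172. By library totals alone it was 0.93, with an edgeR adjusted p of 0.000302, so its call depended on the scaling.

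A ratio of genes within a library does not depend on the scaling. Per kilobase of exon, the level of Cd300lf over that of Cd300a was 3.02, 3.20, 3.48 and 4.30 in ICAM1high replicates 1 to 4, against 13.8, 11.3, 10.9 and 9.10 in ICAM1low replicates 1 to 4. The fractions did not overlap, and the ratio was 3.50 ± 0.565 in ICAM1high and 11.3 ± 1.93 in ICAM1low (SD, n = 4 each). A ratio shows unequal change, not which of the genes changed.

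Cd300lb encodes CLM-7, an activating receptor that signals through the adaptor DAP12. The gene (ENSMUSG00000063193) spans chr11:114922781-114934386 on the minus strand, with 2917 exon bases. Its level was 54.8, 50.3, 52.8 and 46.7 CPM in ICAM1high replicates 1 to 4, against 110.7, 104.3, 118.7 and 117.4 CPM in ICAM1low replicates 1 to 4. The fractions did not overlap, and the spread within each was small, at 51.1 ± 3.45 CPM in ICAM1high and 112.8 ± 6.67 CPM in ICAM1low (SD, n = 4 each). The log2 fold change was -1.14 (SE 0.13, adjusted p = 0.000112, edgeR quasi-likelihood test with Benjamini-Hochberg adjustment). Scaling by library totals alone gave -0.45, with an edgeR adjusted p of 0.0174.

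Against Cd300a, Cd300lb gave the tightest of the ratios computed. Its level per kilobase over that of Cd300a was 0.348 to 0.390 in ICAM1high libraries and 0.960 to 0.995 in ICAM1low libraries, with means of 0.374 ± 0.0183 in ICAM1high and 0.975 ± 0.0145 in ICAM1low (SD, n = 4 each). Cd300lf and Cd300lb kept closer proportions, with Cd300lf at 9.34 ± 1.17 times the per-kilobase level of Cd300lb in ICAM1high and 11.6 ± 2.09 times in ICAM1low (SD, n = 4 each).

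**Figure D2:**
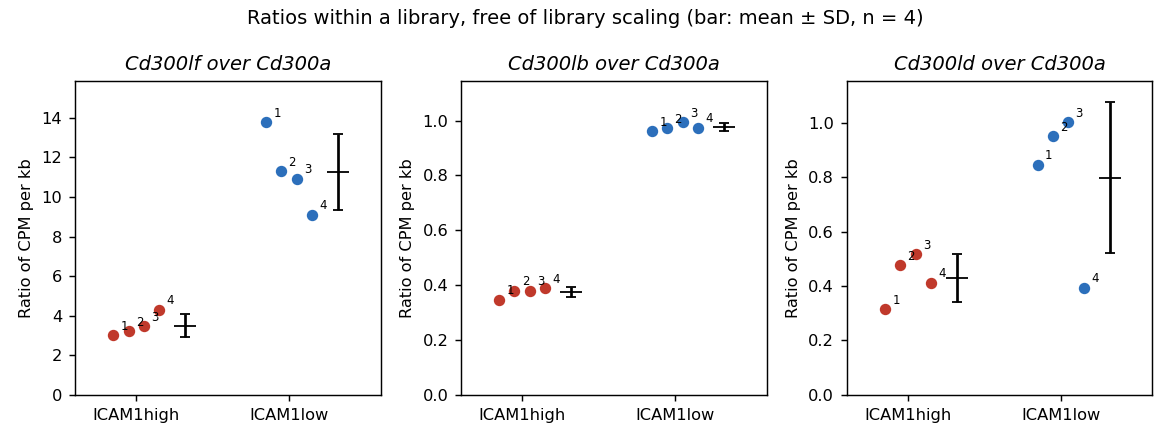
Ratios of the per-kilobase levels of pairs of CD300 genes in each library on a linear axis from 0, ICAM1high left of ICAM1low; points are libraries with their replicate number, and bars give the mean ± SD (n = 4 each). The ratios of Cd300lf and of Cd300lb to Cd300a separated the fractions, with Cd300lb over Cd300a at 0.348 to 0.390 in ICAM1high and 0.960 to 0.995 in ICAM1low, while Cd300ld over Cd300a overlapped through ICAM1low replicate 4.

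Cd300ld encodes CLM-5, an activating receptor of mouse neutrophils that signals through the Fc receptor gamma chain. The gene (ENSMUSG00000034641) spans chr11:114982274-114989922 on the minus strand, with 2645 exon bases. Its level was 44.9, 57.2, 65.1 and 44.8 CPM in ICAM1high replicates 1 to 4, against 88.4, 92.5, 108.4 and 43.0 CPM in ICAM1low replicates 1 to 4. The fractions overlapped because ICAM1low replicate 4, one of the libraries that stood apart, was the lowest of all 8. The log2 fold change was -0.65 (SE 0.26), which missed the threshold with an edgeR adjusted p of 0.0705. Without ICAM1low replicate 4 it was -0.86, with an edgeR adjusted p of 0.00313. With all 8 libraries it passed with RLE size factors (edgeR adjusted p = 0.0487) and with DESeq2 (Wald test adjusted p = 0.0296). The call thus depended on ICAM1low replicate 4 and on the method. Under library totals alone the log2 fold change was 0.022 (edgeR adjusted p = 0.957), so the sign too depended on the scaling.

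Cd300ld2 to Cd300ld5 lie near Cd300ld in the cluster, with Cd300c2 in between. Stretches of the promoters of Cd300ld and Cd300ld4 are shown because these are alike. They come from RefSeq on GRCm38.p6, at chr11:114989971-114990070 and chr11:115027062-115027161 in that order, both on the minus strand and read along the gene. Capitals again mark GAGGAA, here on the strand of the gene.
Cd300ld: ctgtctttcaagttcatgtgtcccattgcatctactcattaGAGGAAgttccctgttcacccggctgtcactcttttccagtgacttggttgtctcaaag
Cd300ld4: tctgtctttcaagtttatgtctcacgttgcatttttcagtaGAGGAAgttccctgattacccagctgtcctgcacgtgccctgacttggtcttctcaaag
Over 203 aligned bases the 250-base windows of these genes were 90.1% identical. The window of Cd300ld4 was identical to that of Cd300ld5 and 94.8% identical to that of Cd300ld3. AGAGGAAGT, a longer form that contains GAGGAA, stood in these 4 windows and in none of the other 6 CD300 windows, against 0.798% of all windows. Windows so alike are not independent, so their count cannot be weighed against that share. The transcripts of Cd300ld3, Cd300ld4 and Cd300ld5 are near copies of each other. Of the 50-base stretches of Cd300ld5, 100% also occur in another gene of GENCODE M21, with 93.8% for Cd300ld4 and 82.1% for Cd300ld3. The share was 31% for Cd300ld2 and 3.89% for Cd300ld, where it was mainly with Cd300lf (3.66%). The labels do not say how reads that fit several of these genes were counted, so their split is uncertain.

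Of these near copies, only Cd300ld4 passed the test. Its level was 7.73, 9.88, 5.55 and 8.16 CPM in ICAM1high replicates 1 to 4, against 5.06, 4.10, 2.53 and 1.62 CPM in ICAM1low replicates 1 to 4. The fractions did not overlap, and the log2 fold change was 1.24 (SE 0.35, adjusted p = 0.0170, edgeR quasi-likelihood test). It missed the threshold without ICAM1high replicate 2 (edgeR adjusted p = 0.0619) and without ICAM1low replicate 3 (edgeR adjusted p = 0.0524). Cd300ld3 had a log2 fold change of -0.53 (edgeR adjusted p = 0.502) and Cd300ld5 one of 0.96 (edgeR adjusted p = 0.266). The CPM of the 3 genes together was 14.1, 14.9, 9.07 and 14.6 in ICAM1high replicates 1 to 4, against 15.9, 7.64, 7.88 and 3.24 in ICAM1low replicates 1 to 4. As a sum, where a split between them no longer matters, the fractions overlapped.

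Cd300e encodes CLM-2, whose human counterpart activates monocytes. The gene (ENSMUSG00000048498) spans chr11:115051917-115062177 on the minus strand, with 2088 exon bases. It had 83, 53, 54 and 22 counts in ICAM1high replicates 1 to 4, against 8, 8, 4 and 0 counts in ICAM1low replicates 1 to 4. The fractions did not overlap, at 2.49 ± 0.726 CPM in ICAM1high and 0.327 ± 0.265 CPM in ICAM1low (SD, n = 4 each). The fitted log2 fold change was 2.93 (SE 0.69, adjusted p = 0.00686, edgeR quasi-likelihood test with Benjamini-Hochberg adjustment), and 3.56 with library totals alone (edgeR adjusted p = 0.00165). With replicates 3 and 4 alone it was 4.07, with an edgeR adjusted p of 0.0598.

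Cd300c, an activating receptor gene (ENSMUSG00000058728, chr11:114956116-114969157, minus strand, 1065 exon bases), was near the limit of detection. It had 1, 2, 3 and 0 counts in ICAM1high replicates 1 to 4, against 4, 0, 0 and 0 counts in ICAM1low replicates 1 to 4. A floor of 3 counts is 0.123 to 0.229 CPM in these libraries, so a difference was not detectable at this depth. A related gene with a similar name, Cd300c2, was abundant instead, with 284, 153, 144 and 123 CPM in ICAM1high replicates 1 to 4, against 145, 190, 164 and 297 CPM in ICAM1low replicates 1 to 4. The highest library of each fraction was the one that stood apart from its group, and the log2 fold change of Cd300c2 was -0.18 (SE 0.30, edgeR adjusted p = 0.668). Without both of them it was -0.28 (edgeR adjusted p = 0.144). Of its 50-base stretches, 7.16% occur in another gene.

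Set per kilobase, Cd300lf was the most abundant of the 6 in both fractions, at 162.9 ± 12.9 CPM per kilobase in ICAM1high and 445.7 ± 72.3 in ICAM1low (SD, n = 4 each). Cd300a came next in ICAM1high, at 47.1 ± 5.37 CPM per kilobase, followed by Cd300ld at 20.04 ± 3.75 and Cd300lb at 17.5 ± 1.18, whose values overlapped. In ICAM1low Cd300a, Cd300lb and Cd300ld lay close together, at 39.6 ± 2.04, 38.7 ± 2.29 and 31.4 ± 10.6 CPM per kilobase, and their ranges over libraries overlapped. Cd300e and Cd300c were last in both fractions. Cd300c2, which is not among the 6, was at 138.1 ± 57.5 CPM per kilobase in ICAM1high and 156.0 ± 53.2 in ICAM1low (SD, n = 4 each). It thus lay above Cd300a in both fractions.

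The proportions of the members differed between the fractions. Cd300lf took 65.4 ± 3.26% of the summed per-kilobase level of the 6 genes in ICAM1high and 80.1 ± 2.02% in ICAM1low (SD, n = 4 each). Cd300a took 18.9 ± 2.05% in ICAM1high and 7.24 ± 1.12% in ICAM1low, again without overlap. The share of Cd300lb was 7.05 ± 0.495% in ICAM1high and 7.06 ± 1.12% in ICAM1low, although its own level differed. With TMM the summed level was 248.8 ± 11.99 CPM per kilobase in ICAM1high and 555.6 ± 77.9 in ICAM1low. Unlike the shares, this sum depends on the scaling, and it was not computed with library totals alone. Cd300lf, the largest part of it, had a log2 fold change of -1.45 with TMM and -0.78 with library totals alone. The sum and the shares leave out the abundant Cd300c2, so they describe the 6 genes and not all CD300 transcripts. Shares within a library are free of the scaling, and they sum to the whole, so they are not independent of each other.

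**Figure D3:**
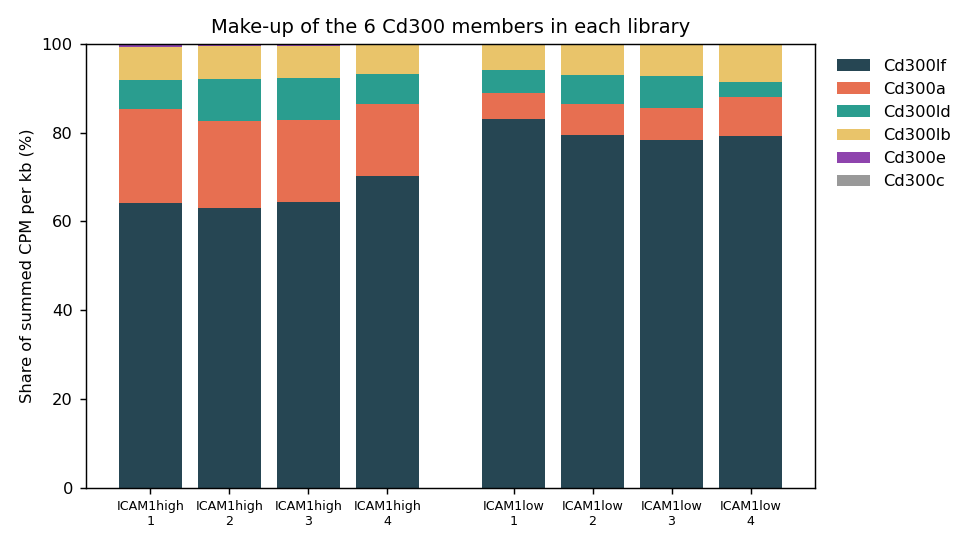
Share of each CD300 gene in the summed per-kilobase level of the 6 genes, in percent, as stacked bars with 1 bar per library, ICAM1high left of ICAM1low. Cd300lf held 63.0 to 70.2% in ICAM1high libraries and 78.5 to 83.0% in ICAM1low libraries, and Cd300a 16.3 to 21.2% in ICAM1high libraries and 6.02 to 8.72% in ICAM1low libraries.

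The adaptors through which the activating members signal were lower in ICAM1high with TMM, 3 of 3, beside 19.6% lower among all genes tested. Their median log2 fold change was -1.21, against 0.08 for all genes. Tyrobp, which encodes DAP12, was at 534 ± 238 CPM in ICAM1high and 1235 ± 644 CPM in ICAM1low (SD, n = 4 each), a log2 fold change of -1.21 (edgeR adjusted p = 0.0228). Fcer1g, the Fc receptor gamma chain, had a log2 fold change of -0.92 (edgeR adjusted p = 0.0376). Hcst, which encodes DAP10, had one of -1.71 (edgeR adjusted p = 0.0149). Scaled by library totals, 0 of the 3 passed, beside 5.97% lower among all genes, and the median was -0.51 against 0.76 for all genes. A replicate block, a pairing that the labels do not establish, left 1 of the 3 lower, beside 1975 of all 14051 genes. With 3 genes these counts say little of the list.

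Of the 3 phosphatases that ITIMs recruit, 2 were lower with TMM, beside 19.6% lower among all genes tested. Ptpn6 (SHP-1) had a log2 fold change of -0.78 (edgeR adjusted p = 0.00493) and Inpp5d (SHIP-1) one of -0.76 (edgeR adjusted p = 0.00775). Ptpn11 (SHP-2) had one of 0.30 and did not pass (edgeR adjusted p = 0.266). Library totals alone gave 1 of the 3 higher and 0 lower, beside 48.5% and 5.97% of all genes. These counts too rest on 3 genes and say little of the list.

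Among 12 genes of signalling next to the receptors, 2 were higher, 7 lower and 3 not passed with TMM, with a median of -0.50. Among all genes tested 22.6% were higher and 19.6% lower. Lower were the kinases Syk at a log2 fold change of -1.09 (edgeR adjusted p = 0.000677), Fgr at -0.94 (edgeR adjusted p = 0.000491) and Lyn at -0.81 (edgeR adjusted p = 0.000969). Higher were the kinase Fyn, at 18.4 ± 2.84 CPM in ICAM1high and 1.85 ± 1.02 CPM in ICAM1low (SD, n = 4 each; log2 fold change 3.31, edgeR adjusted p = 0.000105), and the phospholipase Plcg2 at 0.50 (edgeR adjusted p = 0.0267). Library totals alone gave 4 higher and 0 lower, beside 48.5% and 5.97% of all genes, with a median of 0.18 against 0.76 for all genes. The list's median was below that of all genes under both scalings. A change of scaling moves all genes by about the same amount, so the scalings are not separate support for this. Fyn was higher under both. All 15 neutrophil markers were lower with TMM, with a median log2 fold change of -2.22, and 14 of 15 with library totals. Of the 14 macrophage markers 13 were higher with TMM, with a median of 3.89. The 5 tumour epithelial markers tested had a median of -1.41, with Krt8 at -1.47, Krt18 at -1.41, Epcam at -1.61 and 2 not passed. Their part in the CD300, adaptor and signalling results was not tested.

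**Figure D4:**
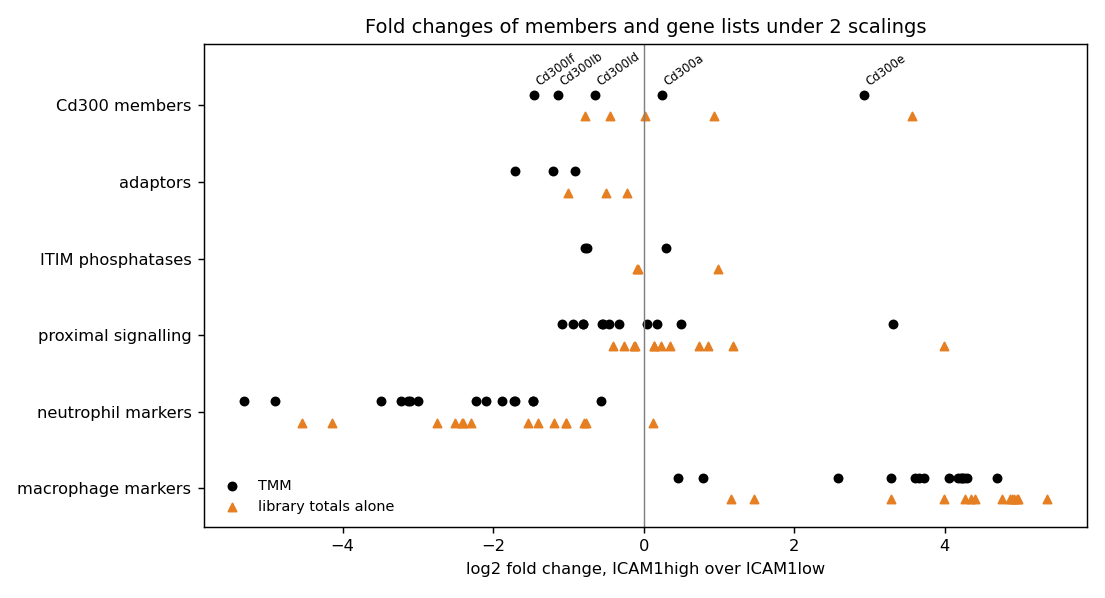
Log2 fold change, ICAM1high over ICAM1low, of each tested CD300 member, adaptor, phosphatase, signalling gene and neutrophil or macrophage marker; each point is a gene, as a circle with TMM and as a triangle with library totals alone. With TMM the 3 adaptors lie between -1.71 and -0.92 and Fyn stands apart from the other signalling genes at 3.31, and with library totals the points lie further to the right.

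The genes whose pattern over the libraries was most like each member's were looked up across the table. The likeness is the mean absolute difference in log2 CPM after each gene was centred on its own mean, a description with no test. The 8 libraries are the same for all genes and differ among themselves in sorted fraction and depth. Nearest to Cd300lf were Csf3r, the receptor of the growth factor G-CSF, at 0.048, then Dgka at 0.056 and Clk1 at 0.075. Csf3r is also 1 of the 15 neutrophil markers, and its log2 fold change was -1.47. Nearest to Cd300lb were Katna1 at 0.057, Tpst2 at 0.058 and Ppp1r15a at 0.061, and nearest to Cd300a were Vps9d1 at 0.062, St13 at 0.062 and Ncstn at 0.063. Nearest to Cd300ld was Cxcr4, a chemokine receptor gene, at 0.094, followed by Osbpl3 at 0.112 and Igf2bp2 at 0.116. Cd300e had no gene as close, with Pdp2 at 0.210, Dnmt3b at 0.279 and Tmem171 at 0.283. Cd300e, at an average log2 CPM of 0.64, and these genes, at 0.28 to 1.04, are scarce. The part of low counts in these distances was not tested.

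The cluster's neighbours were of either sign. Of 8 other protein-coding genes within 100 kb of a member, 6 were tested, and 3 were higher and 3 lower in ICAM1high with TMM. Among all genes tested 22.6% were higher and 19.6% lower. Higher were Kif19a at a log2 fold change of 3.29, Gprc5c at 1.29 and Tmem104 at 0.66, and lower were Slc9a3r1 at -1.11, Nat9 at -0.71 and Rab37 at -0.68. Kif19a was above the filter's level in 4 ICAM1high libraries and 1 ICAM1low library, so, like Cd300e, it was tested only through ICAM1high and had to differ. Library totals alone gave 3 higher and 1, Slc9a3r1, lower, beside 48.5% and 5.97% of all genes. Rab37 lies over Cd300lf on the opposite strand but shares 0 exon bases with it, and it had 727 counts in all libraries together against 211915 for Cd300lf. Btbd17 and Gpr142 were too low to be tested.

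**Figure D5:**
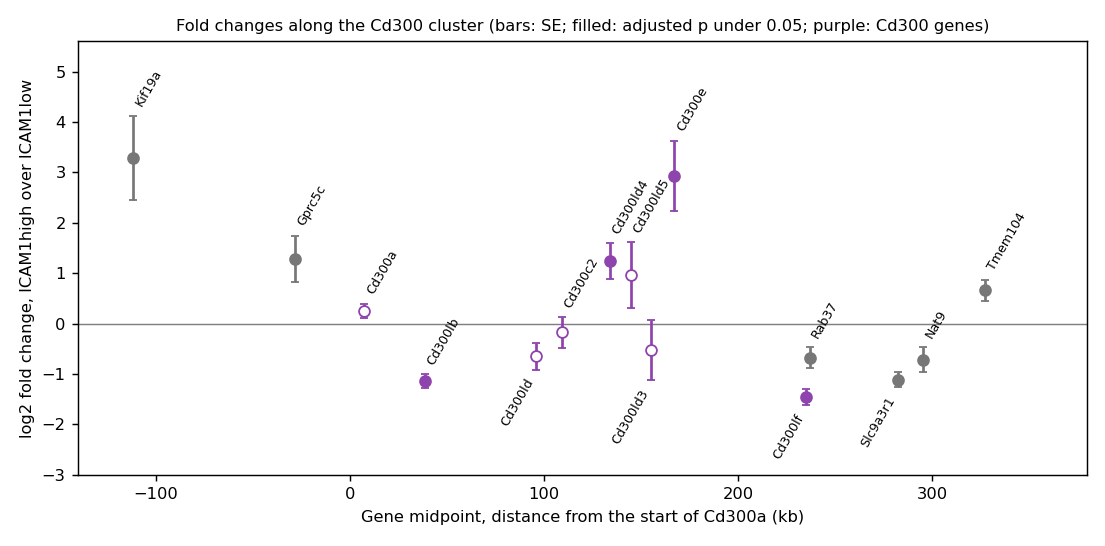
Log2 fold change, ICAM1high over ICAM1low with TMM, of the tested genes of the CD300 cluster (purple) and its neighbours (grey) against the distance of their midpoints from the start of Cd300a in kilobases; bars are SE, and filled points passed an edgeR adjusted p of 0.05. Cd300lf at -1.45 and Cd300lb at -1.14 lie among genes of either sign, such as Cd300ld4 at 1.24.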

How the data were processed

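RNA-seq of 8 libraries was analysed, 4 ICAM1high and 4 ICAM1low, grouped by their titles. The authors deposited a table of whole-number counts per gene, not normalized, with positions and gene lengths in bases, another deposited quantity. HISAT2 and mm10 are named per the submitters' processing notes (aligner version, counting tool, annotation release and strand setting: not given in the sources used here). All CD300 genes named here had the same position and exon length in GENCODE M21.

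Genes were filtered with filterByExpr, scaled by TMM and tested, unpaired, over all 14051 genes in R 4.3.3 (edgeR 4.0.16, quasi-likelihood F test), with Benjamini-Hochberg adjustment at 0.05. Each fold change is ICAM1high over ICAM1low, its standard error is its size over the root of F, and the prior count of log2 CPM was 2. The fit was checked on simulated data. The chi-square per degree of freedom between libraries of a group was 12.6 to 221, far above counting error, so none was merged. Depth limits mainly Cd300c and Cd300e, which are near a floor of 3 counts per library in ICAM1low.

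Named were the 6 members, other genes named Cd300, up to 3 genes per direction of each list by smallest p (all genes of lists of 3), protein-coding neighbours within 100 kb, and the 3 genes most like each tested member, without predicted genes. The members and lists were chosen with earlier results of these data known. Alternatives were DESeq2 1.42.0, limma-voom (limma 3.58.1), other scalings and filters, a robust fit, a replicate block, the library-number series as a covariate, subsets of replicates and each library left out in turn. Promoter letters were searched in the RefSeq GRCm38.p6 table, which held 10 CD300 genes.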

Additional observations from a re-analysis of the deposited data

Results flagged for a closer look

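Of 18 sets of 4 libraries, a tested CD300 gene in 1 fraction each, 1 held a library far from the other 3, and chance gives about 1 such set in 20. Cd300ld5 had 1 count in ICAM1low replicate 4, a level of 0.0624 CPM, while the other ICAM1low libraries held 1.69 to 1.77 CPM. Its ICAM1high libraries held 1.56 to 3.36 CPM. All 50-base stretches of Cd300ld5 occur in another gene, and the part of this in its value was not tested.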

How the results depend on the processing

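Over 21 alternatives, Cd300lf kept its direction and its side of the threshold with log2 fold changes of -1.64 to -0.78, and Cd300lb with -1.29 to -0.45. Cd300e did so in 19 of 20, at 2.30 to 4.07. With library totals alone the members higher in ICAM1high numbered 2, all genes 6818 higher and 839 lower, Cd300a was at 0.93 and past the threshold, and Cd300ld, Cd300c2 and Cd300ld3 changed sign, to 0.022, 0.51 and 0.11. With at least 50 counts in 4 libraries 0 members were higher, because Cd300e was not tested. With replicates 3 and 4 alone 0 members were higher, all genes numbered 1658 higher and 1604 lower, and Cd300e was at 4.07, no longer past the threshold. With replicates 1 and 2 alone all genes numbered 1708 higher and 1416 lower, and Cd300c2 was at 0.38. These subsets hold fewer samples. Cd300ld passed the threshold with DESeq2 at -0.70, with RLE size factors at -0.70 and at -0.82 when the libraries that stood apart, ICAM1high replicate 1 and ICAM1low replicate 4, were left out; the cause was not tested. Leaving out 1 library in turn gave -0.86 to -0.50 for Cd300ld, -0.54 to 0.083 for Cd300c2 (positive without ICAM1low replicate 4) and -0.99 to 0.26 for Cd300ld3 (positive without ICAM1low replicate 1). On CPM without length the share of Cd300lf was 71.7% in ICAM1high and 85.5% in ICAM1low. Same-numbered libraries had correlations of -0.57, 0.21, 0.18 and -0.30 after removal of group means, which were not all above 0.1. Library names of the fractions share numbers too, but the labels do not say what a number marks, and whether same-numbered libraries came from the same tumours was not settled. With a replicate block 2263 genes were higher and 1975 lower, 1 member was higher and 2 lower, Cd300lf was at -1.44, and fewer list genes passed: 1 of the 3 adaptors was lower, 1 signalling gene higher and 5 lower, 0 genes of phospholipid exposure higher and 2 lower, and 1 partner lower.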

Other observations

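Genes that set which lipids a cell shows on its surface, the ligands of some CD300 receptors, were mixed: of 6, 1 was higher, 2 lower and 3 not passed with TMM. Ano6, a scramblase that exposes phosphatidylserine, was at 61.1 ± 21.9 CPM in ICAM1high and 31.7 ± 10.7 CPM in ICAM1low (SD, n = 4 each), a log2 fold change of 0.95 (edgeR adjusted p = 0.0424). Atp11a, a flippase that returns it to the inner leaflet, had a log2 fold change of -1.48 (edgeR adjusted p = 0.00344), and Plscr1 one of -0.91 (edgeR adjusted p = 0.00325). With library totals alone 3 of the 6 were higher and 0 lower. Among all genes 22.6% were higher and 19.6% lower with TMM, and 48.5% and 5.97% with library totals, so with 6 genes these counts say nothing particular of the list.

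Of the reported partners, Il4ra, whose protein associates with CD300LF, had a log2 fold change of -0.68 (edgeR adjusted p = 0.00277), and Tlr4, linked to CD300LB, one of -1.10 (edgeR adjusted p = 0.0171). With library totals alone neither passed. Havcr1, a reported ligand of CD300LB, was too low to be tested. Cd300ld2 had 11, 33, 37 and 12 counts in ICAM1high replicates 1 to 4, against 4, 2, 0 and 10 counts in ICAM1low replicates 1 to 4, and was not tested. Cd300lg had 34 counts in ICAM1high libraries and 37 in ICAM1low libraries in sum.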
